A study of Mus musculus with 4 samples.

Results

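The genes described here encode the eukaryotic translation initiation factors (eIF) and elongation factors (eEF). They are the 59 of 24062 genes in the deposited count table whose symbol starts with Eif1 to Eif6, Eef1 or Eef2, leaving out the eIF2 kinases (Eif2ak names) and pseudogene names. By family there were 5 eIF1 genes, 6 eIF2 genes, 5 eIF2B genes, 14 eIF3 genes, 12 eIF4 genes, 4 genes of eIF4E-binding proteins, 5 genes of eIF5, eIF5A, eIF5B and eIF6, 6 eEF1 genes and 2 eEF2 genes. The last 2 are Eef2 and Eef2k, the gene of the kinase of eEF2. The filter on low counts kept 54 of them. The other 5 (Eif3j1, Eif3j2, Eif4e1b, Eif2s3y and Eef1a2) had 0 counts in all 4 libraries, where up to 3 counts, or between 0.208 and 0.26 CPM (counts scaled to a common library size), could go unseen through counting error alone. Eif3j1 and Eif3j2 are near-identical copies, so reads of the eIF3j subunit may have been lost in the counting, and no value is given for it.

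The RNA came from gBT-I cells, CD8+ T cells whose transgenic receptor recognises glycoprotein B (gB) of herpes simplex virus. All cells, in both groups, came from spleens of gBT-I transgenic donors kept specific pathogen free (SPF), were activated in culture with the gB peptide and lipopolysaccharide (LPS), received IL-1 per the labels on days 2 and 3, and were injected into a vein of C57BL/6 recipients on day 4. The 2 groups differ in the recipient alone as labelled: SPF C57BL/6 mice or germ-free (GF) C57BL/6 mice, with 2 libraries each from splenic gBT-I cells sorted on day 7 after transfer. The comparison asks how the transcripts of these T cells differ between hosts with and without microbes. The labels do not give ages, sexes or numbers of mice, nor whether each library is from other mice, so a p-value here reflects library-to-library spread, which may be technical.

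The libraries held 11544960 and 14026051 counts (SPF replicates 1 and 2) and 14219354 and 14431533 counts (GF replicates 1 and 2). The markers Cd3d, Cd3e, Cd3g, Cd8a, Cd8b1, Thy1 and Cd2 summed to between 4437.6 and 6090.7 CPM, and the globin genes Hbb-b1, Hbb-b2, Hba-a1 and Hba-a2, near-identical copies whose reads may have been lost, were at 0. B cell markers (7 of 7 in the table) summed to 81.2 and 100.8 CPM in the libraries numbered 1 and to 25.7 and 28.3 CPM in those numbered 2, monocyte and macrophage markers (5 of 6) to between 84.9 and 123.4 CPM, and NK cell markers (3 of 3, Klra8 at 0) to 50.2 and 39.6 CPM in SPF against 34.5 and 28.7 CPM in GF. The part of these cells in the results was not tested. SPF replicate 1 stood apart for many factor genes, as described below. In bulk RNA, fewer cells of a type and less RNA per cell cannot be told apart.

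Initiation begins when eIF2, bound to GTP, carries the initiator methionyl-tRNA to the small ribosomal subunit, where eIF1, eIF1A, eIF3 and eIF5 also bind. The eIF4F complex (the cap-binding eIF4E, the scaffold eIF4G and the helicase eIF4A) brings the mRNA, and eIF4E-binding proteins (4E-BPs) block eIF4E until mTORC1 phosphorylates them. In elongation, eEF1A delivers aminoacyl-tRNAs and eEF2 moves the ribosome along, and activated T cells depend on this machinery for growth and effector protein synthesis.

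Many elongation factor mRNAs and some initiation factor mRNAs start with a terminal oligopyrimidine (TOP) tract, through which mTORC1 controls their translation. A list of 9 members known as TOP mRNAs was used (Eef1a1, Eef1b2, Eef1d, Eef1g, Eef2, Eif3e, Eif3f, Eif3h and Eif4b). A tract was searched on the gene's own strand as a C followed by at least 6 more pyrimidines (C or T), 7 in all, within 50 bases on either side of the annotated start. The stretches below, of 30 bases each, are those of the TOP-list members with such a tract, shown because they include Eef2 and Eef1a1, the most abundant members. They come from RefSeq on GRCm38.p6 and are written 5′ to 3′ in the direction of the gene, with the tract in capitals. Relative to the annotated start, the tracts began at base 16 (Eef2), -5 (Eef1a1), -4 (Eif3f) and 11 (Eif4b), where negative is upstream. None began at that start, and whether they are the TOP tracts of these mRNAs was not tested.
Eef2 (chr10:81176634-81176663, plus strand): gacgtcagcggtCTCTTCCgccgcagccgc
Eef1a1 (chr9:78481710-78481739, minus strand): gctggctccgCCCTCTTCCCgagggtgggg
Eif3f (chr7:108934403-108934432, plus strand): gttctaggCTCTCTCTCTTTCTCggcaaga
Eif4b (chr15:102073771-102073800, plus strand): gacgccgcgccaCCCCCTCgcgctgcttta

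The promoter table matched 45 members. A tract lay near the annotated start in 4 of the 5 matched TOP-list members and in 21 of the 40 other matched members (52.5%), against 44.5% of 27025 genes in the table. Annotated starts need not be the starts used in these cells, so a match is a description of the letters only.

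Members spanned a 907.5-fold range of level per length, in CPM per kilobase of transcript averaged over the 4 libraries. Eef1a1 (eEF1A) was the highest at 2801.2 ± 346.2 (SD over 4 libraries) and Eef2 the next at 984.5 ± 171.9, without overlap between them in any library. Eef1b2, Eef1g and Eif1, next at 407.0 ± 153.7, 397.8 ± 93.4 and 382.9 ± 83.7, lay within their spread of each other. The median member had 76.0 CPM per kilobase, and the lowest were Eif5a2, a minor relative of Eif5a, at 3.09 ± 0.322 and Eef2k at 3.94 ± 1.12, in that order in GF and in the opposite order in SPF replicate 2.

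In GF recipients 42 of 54 tested members had a lower mean and 12 a higher one, and the median log2 fold change (GF minus SPF) was -0.20, against -0.00 over all 11271 tested genes. For 16 members (29.6%) GF lay below SPF without overlap of the libraries, against 16.4% of all tested genes, and for 5 (9.26%) both lay above, against 16.8%. The 5 were Eif4e3, Eif4g3, Eif4ebp2, Eef2 and Eef2k. No member passed the edgeR quasi-likelihood test of GF against SPF after Benjamini-Hochberg adjustment over all tested genes (smallest adjusted p = 0.86), nor did any other gene (0.0% higher and 0.0% lower). DESeq2, limma-voom and the edgeR exact test called 0 members as well. At an unadjusted p under 0.05 there were 3 members (5.56%, against 3.22% of tested genes), namely Eef2k, Eif4e3 and Eef1e1. Without SPF replicate 2, which leaves a lone SPF library, 6 members passed (11.1%, against 11.5% of all genes tested in that fit): Eif4ebp2 with higher values in GF, and Eef1b2, Eef1e1, Eif4ebp3, Eif4e and Eif1ax with lower ones. With 2 libraries a group, the smallest two-sided p of an exact permutation test is 0.33.

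**Figure D1:**
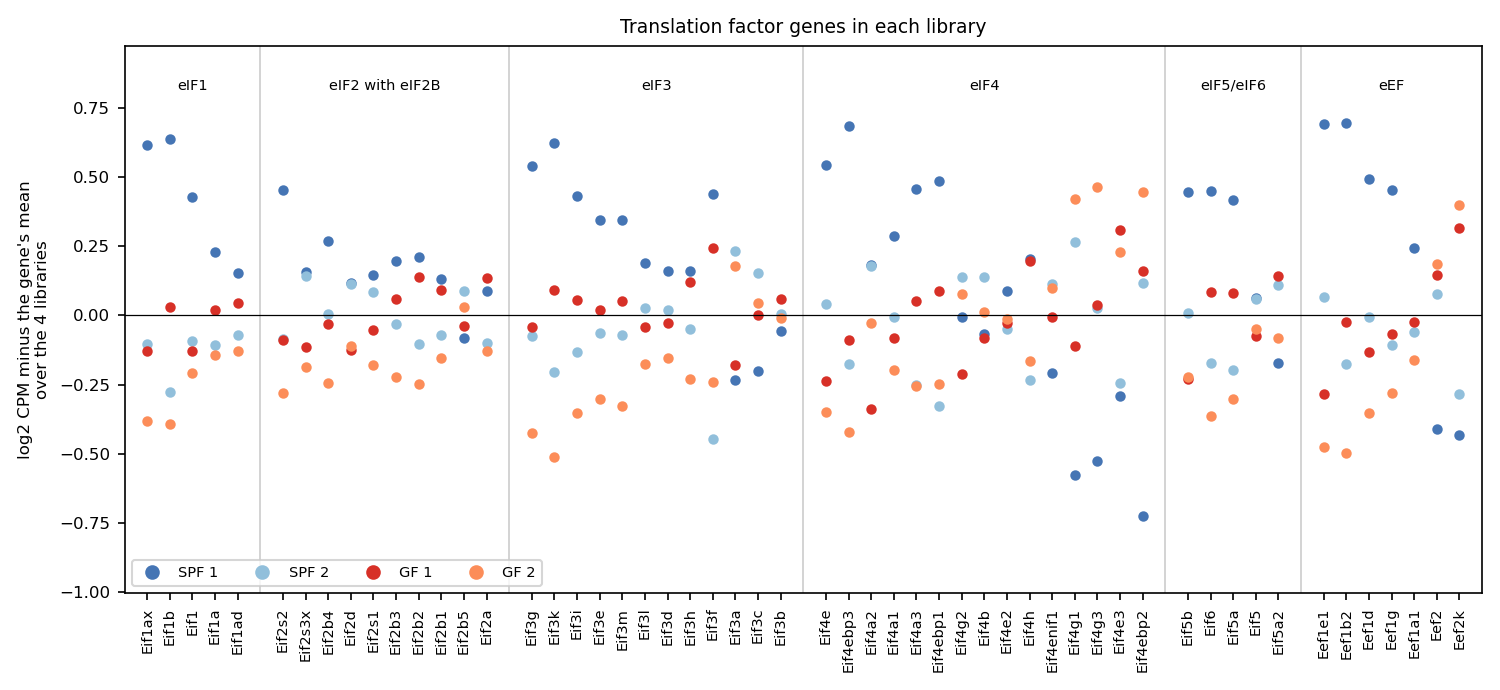
Each of the 54 tested members on the horizontal axis, grouped by family and ordered by fold change, with its log2 CPM in each library minus its mean over the 4 libraries on the vertical axis (1 point per library). SPF replicate 1 (dark blue) is the highest library for most eIF1, eIF3 and eEF1 genes and the lowest for Eif4g1, Eif4g3, Eif4ebp2, Eef2 and Eef2k.

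The SPF libraries differed from each other by more, and the GF libraries by slightly less, than the groups did. Over all members there was a median absolute log2 difference of 0.38 between the SPF replicates and 0.22 between the GF replicates, and a median absolute fold change of 0.26. Over all tested genes the same values were 0.43, 0.29 and 0.27. The fold change compares means of 2 libraries, which vary less than single libraries. Across the members, replicate 2 minus replicate 1 had a median of -0.25 in SPF and -0.17 in GF. GF minus SPF had a median of -0.22 between the libraries numbered 1 and -0.14 between those numbered 2, with 13 and 10 of 54 members higher in GF. Without SPF replicate 1 the fold changes of 17 of 54 members changed sign: Eif1a, Eif1ad, Eif1b, Eif2b1, Eif2b2, Eif3c, Eif3f, Eif3h, Eif3k, Eif4a3, Eif4e2, Eif4g1, Eif4ebp1, Eif4enif1, Eif5a, Eif5a2 and Eif6.

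The families differed in their medians. The log2 fold change was -0.37 over 7 eEF genes, -0.36 over 5 eIF1 genes, -0.24 over 5 genes of eIF5, eIF5A, eIF5B and eIF6, -0.20 over 10 eIF2 and eIF2B genes, -0.20 over 12 eIF3 genes and -0.07 over 15 eIF4 genes with the 4E-BPs. These are descriptions, since members are not replicates of a condition. They rest in large part on SPF replicate 1: without it the medians were -0.06 for eEF, 0.03 for eIF1, -0.07 for eIF5 with eIF6, -0.09 for eIF2 with eIF2B, -0.06 for eIF3 and -0.06 for eIF4. Without SPF replicate 2 they were -0.63, -0.60, -0.52, -0.26, -0.36 and -0.12 in the same order. Within the eEF family the 5 eEF1 genes had a median of -0.50. Eef2 lay on the other side at 0.31, and so did Eef2k, the gene of its kinase, at 0.72. Without SPF replicate 1, Eef2 was at 0.09. GF was below SPF without overlap, as for 16.4% of all tested genes, in 5 of the 10 eIF2 and eIF2B genes, 2 of 12 eIF3 genes (16.7%), 3 of 15 eIF4 genes, 2 of 5 eIF1 genes, 2 of 5 genes of eIF5 with eIF6 and 2 of 7 eEF genes (28.6%). It was above SPF without overlap, as for 16.8% of all tested genes, in 3 of 15 eIF4 genes and 2 of 7 eEF genes and in no gene of the other families. The share of eIF3 genes below SPF was thus near that of all genes, but no eIF3 gene lay above. For eIF4 the shares on both sides were near those of all genes.

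**Figure D2:**
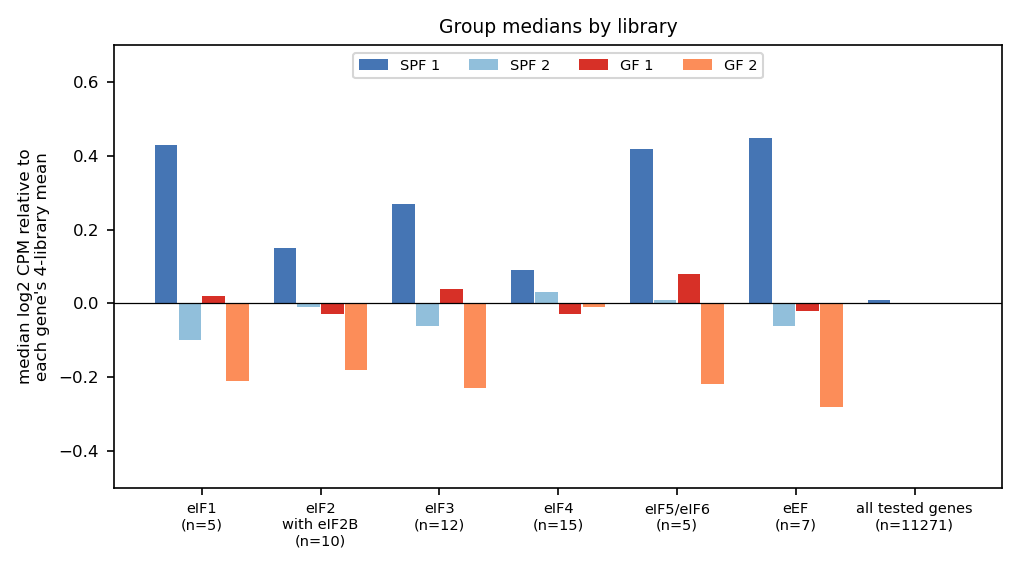
Bars give, for each family and for all tested genes, the median over its tested members of log2 CPM in each library minus the gene's mean over the 4 libraries. SPF replicate 1 is highest in every family, from 0.09 for eIF4 to 0.45 for eEF, while SPF replicate 2 and GF replicate 1 lie between -0.10 and 0.08 in all families.

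Among the eIF1 genes, Eif1, whose product keeps the scanning ribosome open until it meets the start codon, measured 670.6 and 467.3 CPM in SPF and 455.2 and 431.7 CPM in GF (log2 fold change -0.36, SE 0.26). The GF libraries lay just below the lower SPF library, and SPF replicate 1 was far above the other 3. Eif1ax, the X-linked eIF1A gene, measured 77.4 and 47.0 against 46.2 and 38.7 CPM (-0.55, SE 0.30), with the same order of libraries. Its close relative Eif1a measured 77.5 and 61.4 against 66.9 and 59.8 CPM, with overlapping groups (-0.13, SE 0.22). Reads that fit both genes may be shared or lost. Eif1b, a close relative of Eif1, overlapped as well, at 79.0 and 41.8 against 51.7 and 38.6 CPM (-0.42, SE 0.36), as did Eif1ad, which encodes a protein with an eIF1A-like domain (-0.08, SE 0.21).

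The 3 subunits of eIF2 lay lower in GF without overlap. Eif2s3x, the γ subunit that binds GTP and the initiator tRNA, measured 327.7 and 324.1 CPM in SPF against 271.3 and 258.2 CPM in GF, with a small spread in each group (log2 fold change -0.30, SE 0.20, edgeR quasi-likelihood adjusted p = 0.86). Eif2s1, the α subunit that the stress kinases phosphorylate, measured 117.6 and 112.8 against 102.5 and 94.0 CPM (-0.23, SE 0.19). Eif2s2, the β subunit, measured 159.0 and 109.4 against 109.0 and 95.6 CPM (-0.39, SE 0.26), so that SPF replicate 2 and GF replicate 1 were nearly equal. With the trend with transcript length removed (described below), all 3 were still lower in GF without overlap, with log2 fold changes of -0.27 for Eif2s1, -0.35 for Eif2s2 and -0.36 for Eif2s3x. The Y-linked copy of the γ subunit, Eif2s3y, was among the genes with 0 counts.

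Eif2d, which encodes a separate protein that can deliver initiator tRNA and recycle ribosomes, was also lower without overlap, with 61.4 and 61.3 CPM (SPF) against 51.8 and 52.4 CPM (GF) (-0.23, SE 0.19). Exons of Eif2d overlap those of Rassf5 on the opposite strand, and the library kit does not mark strand, so reads of the 2 genes cannot be told apart there. Such overlaps with another gene's exons touch 15 of the 54 tested members, 4 on the same and 11 on the opposite strand. Eif2a, another protein outside the eIF2 complex despite its name, did not separate the groups, at 82.5 and 72.5 against 85.3 and 71.1 CPM (0.01, SE 0.21).

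For the 5 genes of eIF2B, the exchange factor that reloads eIF2 with GTP, the median log2 fold change was -0.10. Eif2b4 (δ subunit) measured 63.7 and 53.0 CPM in SPF against 51.7 and 44.5 CPM in GF (-0.28, SE 0.22) and was the only eIF2B gene without overlap. Eif2b1 (α subunit) measured 47.7 and 41.4 against 46.4 and 39.1 CPM (-0.06, SE 0.22). Eif2b2 (β) measured 70.5 and 56.8 against 67.1 and 51.4 CPM (-0.10, SE 0.24), and Eif2b3 (γ) 17.6 and 15.0 against 16.0 and 13.1 CPM (-0.16, SE 0.27). In all 3 the groups overlapped and replicate 1 was the higher library of each group. Eif2b5, the catalytic ε subunit, lay between 78.4 and 88.2 CPM in all 4 libraries (-0.01, SE 0.20). The median absolute log2 difference was 0.10 between groups, against 0.23 between the SPF replicates and 0.24 between the GF replicates.

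The eIF3 complex, the largest initiation factor, bridges the small ribosomal subunit and the eIF4G scaffold. Its 12 tested subunit genes ranged from -0.49 (Eif3g) to 0.05 (Eif3b), with 10 lower and 2 higher in mean. Eif3g measured 190.9 and 124.6 CPM in SPF against 127.4 and 97.8 CPM in GF (SE 0.29). Eif3k, a small regulatory subunit, measured 314.9 and 177.5 against 218.2 and 143.7 CPM (-0.44, SE 0.37). For both, the first library of each group lay above the second, and the groups overlapped.

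GF was below SPF without overlap for Eif3d, a subunit that can bind the cap of some mRNAs, at 194.5 and 176.4 against 170.6 and 156.5 CPM (-0.18, SE 0.20). The same held for Eif3l, at 221.5 and 198.0 against 188.7 and 172.2 CPM (-0.22, SE 0.20). Eif3e, an octamer subunit, measured 474.1 and 356.9 against 378.4 and 302.2 CPM (-0.29, SE 0.26). The groups overlapped there, and also for Eif3i, at 249.0 and 168.2 against 191.5 and 144.4 CPM (-0.31, SE 0.29), and for Eif3h, the highest per length over the 4 libraries but within the spread of Eif3k, at 402.4 and 348.4 against 391.6 and 307.2 CPM (-0.10, SE 0.24). Eif3a, the scaffold and the tested subunit gene with the longest transcript, ran the other way between replicates. It measured 336.2 and 464.6 CPM in SPF and 349.5 and 446.9 CPM in GF (-0.01, SE 0.27), with the second library above the first in each group. Eif3c and Eif3b had 0.04 (SE 0.23) and 0.05 (SE 0.20).

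Subunits of the 1 complex were not at equal levels. Per length, the highest eIF3 gene exceeded the lowest by 6.2-fold in SPF replicate 1 (Eif3k over Eif3a), 3.62-fold in SPF replicate 2 (Eif3h over Eif3b), 4.43-fold in GF replicate 1 (Eif3h over Eif3a) and 3.23-fold in GF replicate 2 (Eif3h over Eif3b). The median log2 fold change was -0.16 over the 8 octamer subunits (a, c, e, f, h, k, l and m) and -0.31 over the b, g and i subunits. The trend with transcript length (described below) had medians of -0.16 and -0.29 at their lengths. Eif3f varied most between replicates of SPF, with 584.3 and 316.6 CPM there, and 510.1 and 365.1 CPM in GF (-0.04, SE 0.37).

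In the eIF4 family members lay on both sides. The cap-binding gene Eif4e measured 105.5 and 74.4 CPM in SPF against 61.4 and 56.8 CPM in GF, below SPF in both libraries (log2 fold change -0.61, SE 0.25, unadjusted p = 0.056, edgeR adjusted p = 0.86). It lies on chromosome 3 from 138526179 to 138559696 in mm10. Its relative Eif4e3, on chromosome 6 from 99625135 to 99666771, measured 43.8 and 45.3 CPM in SPF against 66.4 and 62.8 CPM in GF, with a narrow spread and no overlap (0.54, SE 0.19, unadjusted p = 0.037, edgeR adjusted p = 0.86). Eif4e3 binds the cap in a different way and has a more restricted expression than Eif4e. Its annotated exons overlap those of Gm20696 on the same strand. The third cap-binding gene, Eif4e2, whose product represses translation, measured 123.8 and 112.6 against 114.2 and 115.3 CPM, with overlap (-0.04, SE 0.19).

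Of the 4E-BP genes, Eif4ebp2 measured 70.6 and 126.4 CPM in SPF against 130.3 and 158.6 CPM in GF (0.55, SE 0.33). SPF replicate 1 was low, and SPF replicate 2 lay just below GF replicate 1. Eif4ebp3 went the other way, with a mean of 38.7 ± 15.9 CPM (SD) in SPF, where replicate 2 had 27.5 CPM, against 29.2 and 23.2 CPM in GF (-0.56, SE 0.35). The groups overlapped, and its exons overlap those of AC115631.1 on the same strand. Eif4ebp1, the best studied 4E-BP, was low, at 29.5 and 16.7 against 22.3 and 17.7 CPM (-0.21, SE 0.35). Eif4enif1, which encodes the eIF4E transporter, measured 87.2 and 108.8 against 100.3 and 107.8 CPM, with overlap (0.09, SE 0.22).

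Ratios within a library, chosen after these values were seen, set the family members against each other. The 3 4E-BP genes together were at 4.45 and 4.51 times the level of Eif4e per length in SPF and at 5.93 and 5.92 times in GF. The replicates nearly coincided in each group, although each gene alone differed between them. The largest share per length came from Eif4ebp3, for which the groups overlapped. This ratio is not independent of Eif4e, its denominator, which by itself lay below SPF without overlap. Eif4e stood at 1.22 and 0.828 times the level of Eif4e3 in SPF and at 0.466 and 0.456 times in GF. Eif4ebp2 alone stood at 0.577 and 1.47 times Eif4e in SPF and 1.83 and 2.41 times in GF, with the replicates of SPF far apart. The ratios of Eif4e to Eif4e3 and of Eif4ebp2 to Eif4e had to separate the groups. Each pairs a gene below SPF without overlap with one above. The ratios of Eif4g1 to Eif4g3, Eif5a to Eif5a2, Eif4a1 to Eif4a3 and Eif4e to Eif4g1 were also formed, and they overlapped.

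The helicase genes Eif4a1 and Eif4a2, close relatives whose shared reads may be split, lay lower in GF without overlap. Eif4a1 measured 683.2 and 558.5 against 529.3 and 488.6 CPM (-0.29, SE 0.23). Eif4a2 measured 832.0 and 829.5 against 579.4 and 719.5 CPM (-0.36, SE 0.23), and its exons overlap those of Rfc4 on the opposite strand. With the length trend removed, the groups overlapped for Eif4a2 (-0.27). Per length the ratio of Eif4a1 to Eif4a2 was 0.93 ± 0.13 in SPF and 0.991 ± 0.206 in GF (SD, n = 2 each), a difference within the spread. Eif4a3, a helicase of the exon junction complex, overlapped between groups (-0.24, SE 0.30). The helicase cofactor genes Eif4b and Eif4h had -0.07 (SE 0.22) and 0.03 (SE 0.26).

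The scaffold genes Eif4g1 and Eif4g3 had higher means in GF. Eif4g3 measured 156.4 and 229.7 CPM in SPF against 231.3 and 310.7 CPM in GF (0.49, SE 0.29), where SPF replicate 2 and GF replicate 1 were almost equal. Eif4g1 measured 259.3 and 464.9 against 358.4 and 516.9 CPM (0.27, SE 0.37), with overlap and with the second library above the first in each group. Eif4g2, which lacks the eIF4E-binding site, had -0.13 (SE 0.24), at 1116.4 and 1233.4 against 968.2 and 1181.3 CPM. Without SPF replicate 1 the fold change of Eif4g1 was -0.09.

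Of the late initiation factors, Eif5b, the GTPase that joins the ribosomal subunits, measured 235.0 and 173.5 CPM in SPF against 147.1 and 147.9 CPM in GF, with no overlap (-0.47, SE 0.23). Its exons overlap those of Rev1 on the opposite strand. Eif5, which makes eIF2 hydrolyse its GTP, measured 459.3 and 457.7 against 416.8 and 425.0 CPM, a small difference with close replicates (-0.12, SE 0.20). Eif5a, whose hypusine-bearing product helps the ribosome past hard peptide bonds, measured 630.1 and 411.2 against 498.4 and 382.7 CPM and overlapped (-0.24, SE 0.30). Eif5a2 measured 13.7 and 16.7 against 17.1 and 14.6 CPM (0.06, SE 0.26). Eif6, which keeps free large subunits apart from small ones, measured 158.2 and 102.8 CPM in SPF against a mean of 106.5 ± 23.3 CPM (SD) in GF, where replicate 1 had 123.0 CPM (-0.29, SE 0.30). Both overlapped between groups. Without SPF replicate 1, the fold changes of Eif5a and Eif6 were 0.10 and 0.05.

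Among the elongation factors, the eEF1 genes had lower means in GF, while Eef2 and its kinase gene Eef2k had higher ones. None passed the test, and the difference in direction was not tested. Eef1a1, which delivers aminoacyl-tRNA, measured 5914.6 and 4797.4 CPM in SPF against 4913.4 and 4475.8 CPM in GF, with overlap (log2 fold change -0.19, SE 0.27). The genes of its exchange factor eEF1B lay further down. Eef1b2 measured 1217.4 and 666.3 against 739.5 and 533.6 CPM (-0.57, SE 0.37), and Eef1g 995.0 and 676.5 against 695.4 and 599.0 CPM (-0.37, SE 0.28). For both, SPF replicate 1 was high, and SPF replicate 2 lay below GF replicate 1. Eef1d measured 326.3 and 231.0 against 212.0 and 181.6 CPM and was the only eEF1B gene without overlap (-0.50, SE 0.26), with exons that overlap Naprt on the same strand.

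Eef1e1, on chromosome 13 from 38644207 to 38659058, encodes a scaffold protein of the aminoacyl-tRNA synthetase complex that is related to eEF1 by sequence. It measured 48.5 and 31.4 CPM in SPF against 24.6 and 21.5 CPM in GF, lower without overlap (-0.79, SE 0.29, unadjusted p = 0.039, edgeR adjusted p = 0.86). This was the lowest log2 fold change of the 54 members.

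Eef2, the translocase, measured 2258.7 and 3171.1 CPM in SPF against 3322.2 and 3412.1 CPM in GF (0.31, SE 0.28, edgeR adjusted p = 0.86). SPF replicate 1 lay far below the other 3 libraries, which were within a narrow range. Per length, Eef1a1 stood at 4.51 and 2.6 times Eef2 in SPF and at 2.55 and 2.26 times in GF. Without SPF replicate 1 the log2 fold change was 0.09 for Eef2, -0.03 for Eef1a1, and -0.06 for both Eef1b2 and Eef1g. With the length trend removed it was -0.04 for Eef1a1. The 9 TOP-list members had 8 lower and 1 higher mean in GF, with a median of -0.19 against -0.21 for the other members.

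Eef2k, on chromosome 7 from 120842831 to 120907450, encodes the kinase that phosphorylates eEF2 and so slows elongation. It measured 18.6 and 20.6 CPM in SPF against 31.4 and 33.2 CPM in GF, with no overlap and close replicates (0.72, SE 0.22, unadjusted p = 0.022, edgeR adjusted p = 0.86). This was the smallest unadjusted p of all members, at rank 131 of 11271 tested genes. Its exons overlap those of Gm15774 on the opposite strand. Per length, Eef2 stood at 258.6 and 327.5 times Eef2k in SPF and at 225.7 and 218.9 times in GF.

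**Figure D3:**
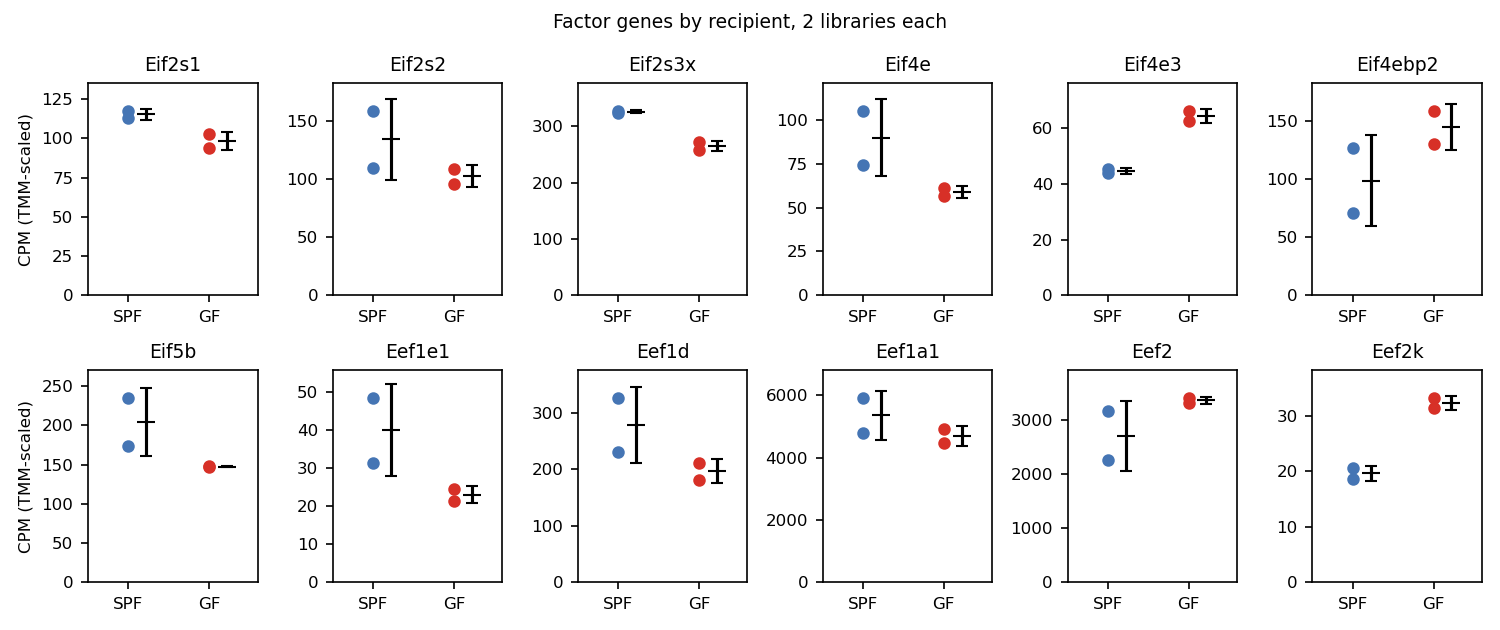
CPM (TMM-scaled) of 12 factor genes, with 1 point per library for SPF (blue) and GF (red) recipients, and the mean with its SD (n = 2) as a black bar beside the points. Every axis starts at 0. The 12 genes are a selection and do not stand for all members. All but Eef1a1 separated the groups without overlap, whereas of the 54 tested members 16 lay below and 5 above. The points of Eif2s3x, Eif4e3 and Eef2k are close within each group, while Eif4e, Eif4ebp2, Eef1e1 and Eef2 differ between the SPF libraries.

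Fold changes of the members followed transcript length. Spearman's rank correlation across the 54 members between annotated length and log2 fold change was 0.45, and it was 0.42 across 11194 tested genes. The correlation with length was higher for differences between replicates, at 0.62 for SPF replicate 2 minus 1 and 0.72 for GF replicate 2 minus 1 across the members. For GF replicate 1 minus SPF replicate 2 it was -0.48. These are descriptions over genes that share the same 4 libraries. The 27 members under the median length of 2306 nt had 26 lower means in GF and a median of -0.28, and the 27 longer ones had 16 lower and 11 higher, with a median of -0.04.

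With a smooth trend with length removed from every library, the median over all members was -0.07, with 17 higher and 37 lower. By family it was -0.23 for eEF, -0.09 for eIF1, -0.08 for eIF5 with eIF6, -0.07 for eIF2 with eIF2B, -0.04 for eIF3 and -0.01 for eIF4. Some genes lay well off the trend on either side. The log2 fold change after removal was 0.57 for Eif4e3, 0.47 for Eef2k, 0.38 for Eif4ebp2 and 0.30 for Eef2, and it was -0.75 for Eef1e1, -0.76 for Eif1ax, -0.80 for Eif4e and -0.83 for Eif5b. Both GF libraries still lay above both SPF libraries for Eif4e3, Eif4g3, Eif4ebp2, Eef2 and Eef2k, and still below for Eif4e and Eef1e1. The groups then overlapped for Eif1, Eif1ax, Eif2d, Eif3d, Eif4a2 and Eif5b. Conversely, Eif3a, Eif3e, Eif3g, Eif4b, Eif4g2, Eif4ebp3, Eef1a1 and Eef1g overlapped before removal and lay below without overlap after it. Of the 54 members, 18 lay below without overlap after removal, against 2315 of 11271 tested genes, and 5 above, against 2308.

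**Figure D4:**
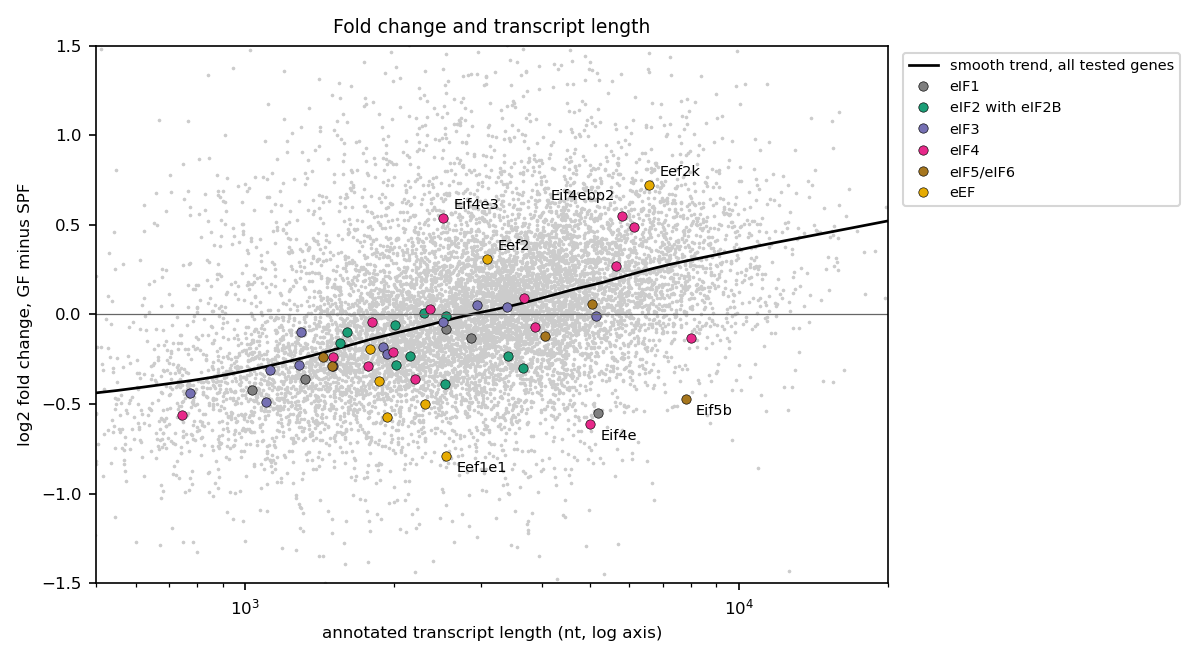
Log2 fold change (GF minus SPF, vertical axis) against annotated transcript length (nt, log axis) for tested genes (grey) and members (coloured by family), with the smooth trend over all tested genes in black; 291 of 11194 genes lie outside the axes. Short members such as most eIF3 genes lie near the trend below 0, while Eif4e, Eif5b and Eef1e1 lie below it and Eif4e3, Eef2 and Eef2k above it.

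Other genes of translation were read from 6 lists holding 57 genes, of which 56 were tested. None passed the edgeR quasi-likelihood test after adjustment over all genes, in either direction. Of these 56, 20 had a higher and 36 a lower mean in GF, with a median of -0.12, and both GF libraries lay above both SPF libraries for 4 and below for 10. These are 7.14% and 17.9%, against 16.8% and 16.4% of all tested genes. At an unadjusted p under 0.05 there was 1, Mrrf (1.79%, against 3.22%).

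Among 11 genes of eIF2 kinases and the stress response they trigger, 9 had a higher mean (81.8%, against 49.7% of all tested genes). No gene separated the groups. These genes are long (median 4313 nt). Their median log2 fold change was 0.20, and the trend with length had a median of 0.12 at their lengths. The double-stranded RNA sensor kinase Eif2ak2 measured 25.2 and 46.1 CPM in SPF against 36.1 and 55.5 CPM in GF (0.36, SE 0.38), and the stress factor gene Ddit3 measured 31.9 and 20.3 against 21.2 and 18.6 CPM (-0.39, SE 0.30). In the mTOR and MNK list (5 higher, 6 lower), Rptor, the mTORC1 scaffold, measured 92.4 and 163.1 against 155.4 and 209.5 CPM (0.51, SE 0.34). At the length of Rptor the trend was 0.25. Rps6kb1, an S6 kinase gene, measured 103.6 and 111.5 against 80.5 and 101.0 CPM and did not overlap (-0.25, SE 0.22).

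The poly(A)-binding protein gene Pabpc1 measured 1189.4 and 1083.2 CPM in SPF against 1246.5 and 1261.1 CPM in GF, above SPF in both libraries (0.14, SE 0.22). Paip1 and Paip2, of an activator and an inhibitor of that protein, measured 101.8 and 66.9 against 61.2 and 54.6 CPM (-0.54, SE 0.27) and 272.2 and 177.1 against 167.4 and 146.4 CPM (-0.52, SE 0.28), both lower without overlap. Genes that modify eIF5A and eEF2 had 1 higher and 8 lower means (88.9% lower, against 50.3% of all tested genes). Dph2 and Dph7 of diphthamide synthesis were at -0.33 (SE 0.21) and -0.34 (SE 0.23). The genes of this list are short (median 1666 nt). Their median log2 fold change was -0.27, and the trend with length had a median of -0.16 at their lengths. Abce1, which recycles ribosomes, measured 167.6 and 203.5 against 129.7 and 161.8 CPM (-0.35, SE 0.23).

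Mitochondrial translation factors had 1 higher and 8 lower means (88.9% lower, against 50.3% of all tested genes). Their median log2 fold change was -0.15. The direction was less even between single libraries. GF was higher for 2 of the 9 genes between the libraries numbered 1 and for 4 between those numbered 2. The median of GF replicate 1 minus SPF replicate 2 was 0.03. Mrrf, the mitochondrial ribosome recycling factor, measured 17.7 and 12.7 CPM in SPF against 5.81 and 7.87 CPM in GF, lower without overlap (-1.15, SE 0.33, unadjusted p = 0.017, edgeR adjusted p = 0.86). Tufm, the mitochondrial counterpart of eEF1A, measured 127.9 and 98.5 against 87.0 and 78.7 CPM and was also lower without overlap (-0.45, SE 0.23).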

How the data were processed

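RNA-seq read counts per gene, as deposited by the authors, were the starting point: whole numbers, not normalized, with 1 column for each of the 4 libraries. Libraries were made from total RNA with an Illumina TruSeq kit, per the labels' protocols. The genome build mm10 and the tools CASAVA, TopHat, Picard, featureCounts, Subread and edgeR are named, per the submitters' processing notes; the sources used here do not give their versions or settings. Each column's name stands in the label of 1 sample.

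Totals ran from 11544960 to 14431533 counts, and 15353 of 24062 genes had any count. GF was tested against SPF with the quasi-likelihood test of edgeR 4.0.16 (R 4.3.3) after TMM scaling and filterByExpr, which kept 11271 genes, with Benjamini-Hochberg adjustment over these genes and a threshold of 0.05. CPM use the TMM-scaled totals; marker sums use plain totals; SDs are over 2 libraries unless stated. The SE of a log2 fold change is its size divided by the square root of F. Log2 CPM use a prior count of 2. Lengths are those of the principal transcript in GENCODE annotation of the same build, and 99.3% of tested genes had one. The trend with length was a lowess curve (span 0.3) per library, removed as offsets. Sequences come from RefSeq (GRCm38.p6).

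The members and the gene lists were chosen with earlier results of these data known. Within each family, genes were named by smallest p (up to 4) and by highest level per length; other members are named to account for them all, and close relatives are set side by side. Other translation genes are named from those with the smallest p in their list. The replicate numbers are not said in the labels to mark a shared animal or day, so the groups were compared unpaired. Alternatives were other scalings and filters, DESeq2 1.42.0, limma-voom (limma 3.58.1), the edgeR exact test, a replicate block, removal of the length trend, and leaving out each library. The code was tested on simulated data. Counting floors (3 counts) cover counting error only. An item of the marker lists is not reported here.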

Additional observations from a re-analysis of the deposited data

How the results depend on the processing

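Over 15 alternative settings, 743 of 810 single-member fold changes (54 tested members) kept their direction and side of the threshold, 15 passed the threshold and 52 (24 members) changed sign. The fold changes of Eif4e, Eif4e3, Eef2k, Eef2, Eef1e1 and the 3 eIF2 subunits kept their direction in all settings. So did those of every other member outside the 24, and most settings use the same 4 libraries. Without SPF replicate 1, Eef2 was at 0.09 and Eif2s2 at -0.10. Against 0 genes higher and 0 lower in the quasi-likelihood test, DESeq2 called 8 and 1, the exact test 8 and 1, and leaving out 1 library gave 0 to 783 higher and 0 to 544 lower. With the replicate number as a block, 786 genes were called higher and 420 lower, among them 4 members higher (Eif4ebp2, Eif4g3, Eif4e3, Eef2k) and 3 lower (Eef1e1, Eef1d, Eif4e), that is 13.0% of members against 10.7% of all genes. The block with length offsets called 176 and 63 genes, with 0 members higher and 2 lower (Eif5b, Eif4e; 3.7% against 2.12%). Differences of same-numbered libraries correlated at 0.71 over all genes and 0.84 over members, but the samples share only a number. Leaving out 1 library called 0 to 1 members higher and 0 to 5 lower, and left 6 to 12 members with GF above SPF and 18 to 39 below, where 1 library against 2 separates more often by construction. The eIF1 median was -0.10 with block and length offsets, -0.09 with the length trend removed and -0.60 to 0.03 without 1 library; leaving out 1 library gave -0.52 to -0.07 for eIF5 with eIF6, -0.63 to -0.06 for eEF, -0.36 to -0.06 for eIF3, -0.30 to -0.09 for eIF2 with eIF2B and -0.12 to -0.04 for eIF4. With plain library totals the median level of the members in GF was 73.9 CPM per kilobase, against 74.0.

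With block and length offsets, and with the length trend alone removed, the sign changed for Eif4e2 (0.10 and 0.10), Eif2b2 (0.07 and 0.07), Eif3h (0.14 and 0.13), Eif5a2 (-0.10 and -0.08), Eif2b3 (0.02 and 0.02), Eif2b1 (0.04 and 0.04), Eif2b5 (0.03 and 0.02) and Eif3f (0.04 and 0.00). It also changed for Eif3f with the block (0.00), Eif3c with the length trend removed (-0.00) and Eif3a with limma-voom (0.00). Leaving out 1 library gave ranges across 0 for Eif4e2 (-0.12 to 0.03), Eif4enif1 (-0.06 to 0.25), Eif5a (-0.52 to 0.10), Eif2b2 (-0.31 to 0.07), Eif3h (-0.29 to 0.06), Eif4g1 (-0.09 to 0.75), Eif1a (-0.30 to 0.05), Eif6 (-0.58 to 0.05), Eif5a2 (-0.07 to 0.20), Eif2b1 (-0.19 to 0.05), Eif3k (-0.81 to 0.03), Eif4g2 (-0.28 to 0.01), Eif4ebp1 (-0.57 to 0.26), Eif1b (-0.81 to 0.11), Eif4a3 (-0.56 to 0.16), Eif4b (-0.17 to 0.03), Eif2b5 (-0.09 to 0.07), Eif1ad (-0.20 to 0.03), Eif3a (-0.22 to 0.24), Eif2a (-0.13 to 0.13), Eif4h (-0.18 to 0.26), Eif3f (-0.42 to 0.47) and Eif3c (-0.13 to 0.22). The cause was not tested.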
